A study of Homo sapiens with 12 samples.

Results

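The TRIM genes encode the tripartite motif proteins, the largest family of RING-type ubiquitin ligases. Members were taken from the deposited expression table as every gene whose symbol is TRIM followed by digits alone, which gave 62 of 22170 genes. Of these, 44 passed a filter on low values and were tested, and 18 did not. Expression was measured in SKBR3, an established line of HER2-amplified (ERBB2) breast cancer cells, whose genotype the labels give as wild type. There were 4 groups of 3 libraries. The DMSO group received vehicle alone. The lapatinib group received 100 nM lapatinib, an inhibitor of the EGFR and HER2 kinases, for the last 24 h, from day 0 to day 1. The GSK126 group received 5 µM GSK126, an inhibitor of the histone methyltransferase EZH2, for 7 days, from day -6. The combination group received both. All groups were split on day -3, and 350000 cells went into each 6 cm plate on day -1. All results come from a single cell line.

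As background, a TRIM protein joins a RING domain, which recruits the ubiquitin-loaded E2 enzyme, to B-box domains and a coiled coil through which the protein dimerizes. The C-terminal domain binds the substrate and defines the classes. PRY-SPRY members (class C-IV) include many antiviral proteins, several of them induced by interferon. Members with a PHD finger and a bromodomain (class C-VI) act on chromatin, and members with NHL repeats (class C-VII) are known mainly from neurons and muscle. A few members lack the RING. In breast cancer the family is known for the corepressor TRIM28 and the nuclear receptor cofactor TRIM24.

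Promoter sequence bears on the interferon-linked members, because interferon-stimulated genes are classically read through an interferon-stimulated response element (ISRE). The 250 bases before the RefSeq start site are shown for 3 members that rose with GSK126 and hold no ISRE core in that window (TRIM31, TRIM38, TRIM56) and for 3 that hold one and were not called with GSK126 against DMSO (TRIM14, TRIM5, TRIM26), though TRIM14 was called higher with GSK126 beside lapatinib. The 6 were chosen with these values known, so the contrast between them is an illustration, and TRIM22 and TRIM29 have no window here. They were read from RefSeq promoters on GRCh38.p14, run 5′ to 3′ on the gene's strand and end at the base before the start. Capitals mark the ISRE core, searched on both strands as GAAA, any 2 bases and GAAA again. In TRIM14, TRIM5 and TRIM26 the match lies on the opposite strand and reads here as TTTC, 2 bases, TTTC. The files' own build is hg19, so these positions belong to the sequences only.
TRIM31 (chr6:30113091-30113340, minus strand): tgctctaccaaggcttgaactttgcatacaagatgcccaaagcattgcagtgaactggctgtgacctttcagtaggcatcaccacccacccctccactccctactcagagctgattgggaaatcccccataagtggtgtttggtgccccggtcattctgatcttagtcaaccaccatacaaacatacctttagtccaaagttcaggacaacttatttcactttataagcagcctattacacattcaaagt
TRIM38 (chr6:25962552-25962801, plus strand): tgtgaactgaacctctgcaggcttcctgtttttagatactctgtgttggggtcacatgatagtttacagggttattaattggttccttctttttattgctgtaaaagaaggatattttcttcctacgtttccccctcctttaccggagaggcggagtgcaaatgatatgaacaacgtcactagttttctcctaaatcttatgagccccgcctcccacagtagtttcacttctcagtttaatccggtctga
TRIM56 (chr7:101085231-101085480, plus strand): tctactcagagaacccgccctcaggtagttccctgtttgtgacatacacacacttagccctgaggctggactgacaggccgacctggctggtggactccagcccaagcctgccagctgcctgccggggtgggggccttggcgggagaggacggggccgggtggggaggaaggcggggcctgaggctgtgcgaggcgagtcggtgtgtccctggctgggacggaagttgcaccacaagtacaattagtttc
TRIM14 (chr9:98119223-98119472, minus strand): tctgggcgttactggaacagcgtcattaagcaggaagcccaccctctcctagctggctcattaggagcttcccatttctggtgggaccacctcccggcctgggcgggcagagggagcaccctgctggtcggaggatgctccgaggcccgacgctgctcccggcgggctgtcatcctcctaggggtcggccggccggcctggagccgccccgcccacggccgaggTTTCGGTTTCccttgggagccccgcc
TRIM5 (chr11:5685075-5685324, minus strand): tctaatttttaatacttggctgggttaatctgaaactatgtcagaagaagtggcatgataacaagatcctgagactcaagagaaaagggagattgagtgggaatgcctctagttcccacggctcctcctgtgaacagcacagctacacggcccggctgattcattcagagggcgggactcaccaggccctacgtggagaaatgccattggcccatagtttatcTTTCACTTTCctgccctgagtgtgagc
TRIM26 (chr6:30213407-30213656, minus strand): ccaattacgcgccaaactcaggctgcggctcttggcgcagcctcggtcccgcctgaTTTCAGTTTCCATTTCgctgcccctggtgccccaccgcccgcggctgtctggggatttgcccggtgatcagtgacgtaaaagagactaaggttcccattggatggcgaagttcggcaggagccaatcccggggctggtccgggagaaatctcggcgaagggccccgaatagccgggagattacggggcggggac

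RefSeq windows of 300 bases, from 250 before to 50 after a start, were matched by symbol for 48 of the 62 members. The ISRE core was found in 9 of 66 member windows, which belong to 9 genes (TRIM2, TRIM5, TRIM14, TRIM16, TRIM21, TRIM26, TRIM34, TRIM44 and TRIM69), against 3.57% of all 35116 windows. The match began 26 bases before the start in TRIM14 and 27 bases before it in TRIM5. TRIM26 holds a pair of overlapping matches, the farther one 194 bases before its start. The GAS core of STAT proteins, TTCNNNGAA, which is its own reverse complement, was found in 10 member windows of 7 genes, TRIM3 and TRIM46 among them, against 7.66% of all windows. The TRIM31 window has few CpG sites, with an observed to expected ratio of 0.067 over 300 bases against a median of 0.579 over all windows. A match describes letters only, and none of these windows was assayed for binding.

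The libraries held 17.7 to 30.3 M gene reads, the fewest in combination library 1. In it 21669 genes had at least 1 read, while the other libraries had 15059 to 17338 such genes. By the make-up of the spike-in transcripts, all DMSO and lapatinib libraries and combination libraries 2 and 3 were alike, GSK126 library 1 stood alone, and GSK126 libraries 2 and 3 were alike with combination library 1. The median SD of the tested members on the log2 scale was 0.20 with DMSO, 0.10 with lapatinib, 0.41 with GSK126 and 0.16 in the combination. Nothing in the labels states that libraries of 1 group are separate cultures, so p-values measure only the spread between these libraries, which may be technical. HER2-amplified luminal markers summed to 552156 to 937177 normalized counts in every library, though CDH1, one of the 13, stayed between 0 and 12.4. The 10 leukocyte markers summed to 395 to 480 with DMSO, 354 to 440 with lapatinib, 838 to 1412 with GSK126 and 1195 to 1434 in the combination, mostly from CD68 and CSF1R, while PTPRC did not exceed 19.9 and CD3E did not exceed 6.22. The 8 endothelial markers summed to 716 to 936, 621 to 725, 1630 to 2328 and 1559 to 1857 in the same order, mostly from CDH5 and ESAM, while PECAM1 did not exceed 4.98 and CLDN5 did not exceed 3.73. The 10 fibroblast markers summed to 302 to 478, and LUM did not exceed 2.49. Within that sum markers moved in opposite directions. COL1A1 was at 199 to 337 with DMSO, 130 to 240 with GSK126 and 60.7 to 105 with both drugs. In the same order COL1A2 was at 33.1 to 42.5, 0 and 1.62 to 23.6, and ACTA2 at 53.4 to 94.4, 134 to 203 and 189 to 246. Leukocyte and endothelial sums and the fibroblast markers COL1A2 and ACTA2 thus moved with GSK126, and their part in the results below was not tested. In bulk RNA, fewer cells expressing a gene and less RNA per cell cannot be told apart.

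Levels below are normalized read counts per library, in library order 1 to 3 of a group, and changes are log2 differences ± SE on the log2(value + 1) scale, which understates the change of low genes. A gene was called at a limma p-value adjusted over all 14179 tested genes below 0.05. These values are relative to the scaling in the deposited table. Scaling to the spike-in total instead moved the median change of all tested genes to -0.49 for lapatinib against DMSO, to -0.49 and -0.99 for the combination against lapatinib and against GSK126, and to -0.94 for the combination against DMSO. Changes are reported relative to the deposited scaling.

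The 18 untested members were TRIM10, TRIM15, TRIM17, TRIM40, TRIM42, TRIM43, TRIM48, TRIM50, TRIM51, TRIM55, TRIM58, TRIM60, TRIM61, TRIM63, TRIM67, TRIM71, TRIM72 and TRIM77. They include the striated-muscle ligases TRIM55, TRIM63 and TRIM72 and the stem-cell NHL protein TRIM71. Each of the 18 had a read in combination library 1, and 15 of them were highest there, while no other library had reads in more than 6 of them. TRIM63 was at 0, 0 and 0 with DMSO, 0.979, 0 and 0.938 with lapatinib, 4.38, 3.07 and 0 with GSK126 and 1.24, 4.04 and 0 with both drugs. That the same library had the fewest reads and the most genes with a read is given above, and the part of this in the low values was not tested.

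With DMSO the family spanned from near silence to abundant messenger RNA. Per kilobase of transcript, using the longest basic transcript of GENCODE 29, TRIM28 was the highest member at 6531 ± 302.5 normalized counts per kb (SD, n = 3), a level above 97.6% of tested genes. TRIM47 followed at 2308 ± 277, then TRIM3 at 1066 ± 80.5 and TRIM27 at 838 ± 61.8 per kb, each step larger than these SDs. TRIM29, TRIM26 and TRIM41 came next at 564 ± 43.7, 521 ± 48.5 and 477 ± 65.1 per kb, and neighbours among these 3 did not differ beyond their spread. The median tested member was at 100.4 per kb against 136 for all 13194 tested genes with a length. TRIM31 and TRIM22, at 1.84 and 2.44 per kb, were near the bottom of the tested members, and TRIM54 was lower still at 0.325 per kb.

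Of the 44 tested members, 25 were called in at least 1 of the 5 comparisons of 2 groups. The other 19 were called in none: TRIM5, TRIM7, TRIM9, TRIM11, TRIM13, TRIM16, TRIM23, TRIM24, TRIM25, TRIM26, TRIM32, TRIM33, TRIM34, TRIM35, TRIM39, TRIM41, TRIM44, TRIM47 and TRIM65. The share of tested members called was 29.5% for lapatinib against DMSO, 15.9% for GSK126 against DMSO, 22.7% for both drugs against lapatinib, 15.9% for both drugs against GSK126 and 43.2% for both drugs against DMSO. Over all tested genes these shares were 28%, 14.6%, 17.9%, 18.2% and 42.1%, so the family as a whole was not set apart by its number of calls. By class, the 20 tested PRY-SPRY members had 4 calls with lapatinib and 2 with GSK126 against DMSO, all higher. Of the 4 tested members of class C-V, which have no further domain, 2 were called higher with each drug against DMSO and all 4 with both. Next to the counts of both classes stand 13.7%, 10.7% and 22% of all tested genes called higher with lapatinib, GSK126 and both. Under spike-in scaling only TRIM31 kept its calls in class C-V, with GSK126 and with both drugs.

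**Figure D1:**
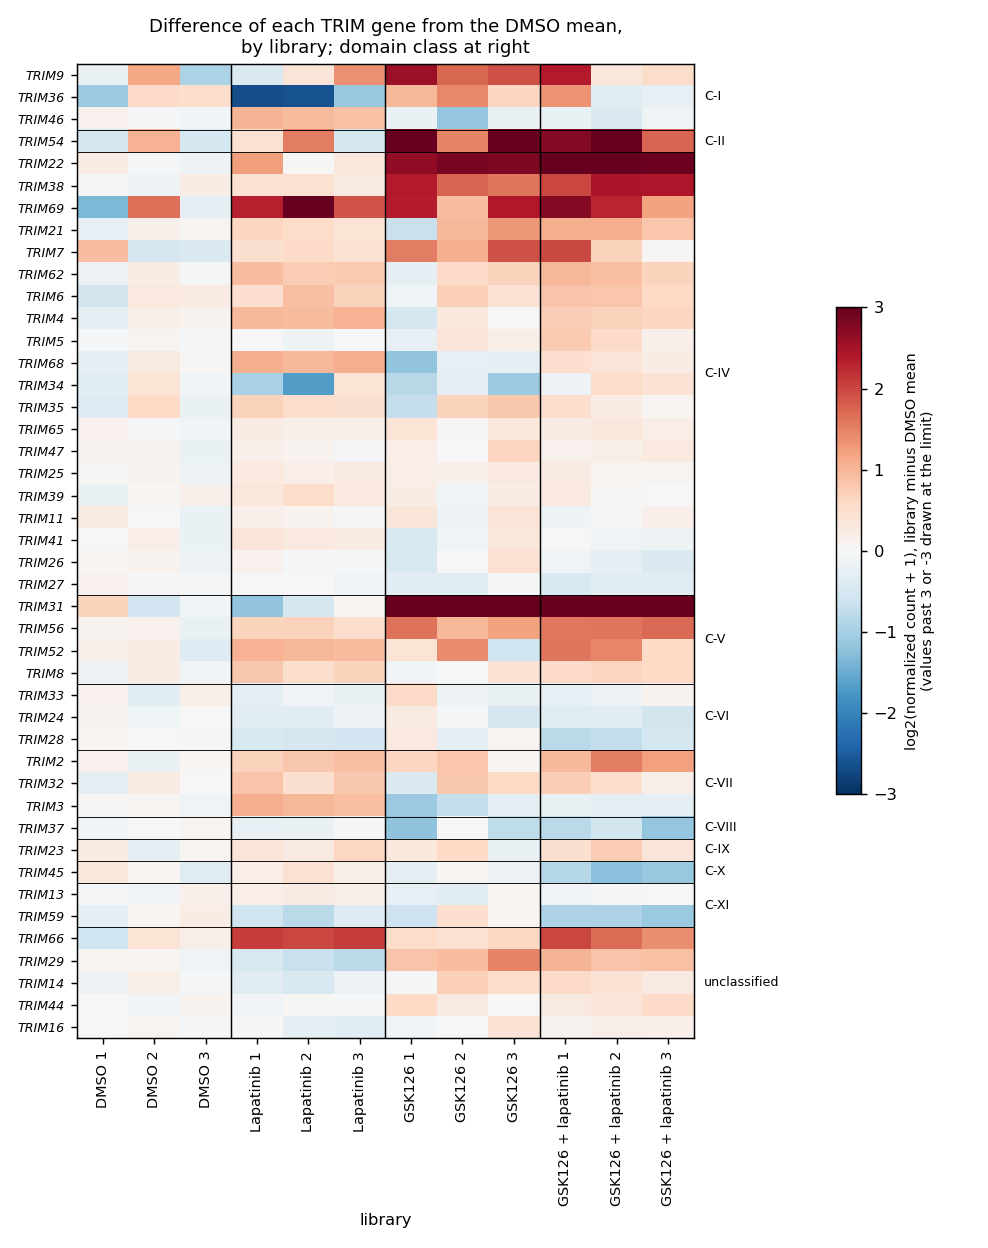
Difference of each of the 44 tested TRIM genes (rows, grouped by domain class) from its DMSO mean in each of the 12 libraries (columns), as log2(normalized count + 1). TRIM31, TRIM22, TRIM38 and TRIM56 are higher in all GSK126 and combination libraries than in any DMSO library, and TRIM66 in all lapatinib and combination libraries.

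GSK126 raised a small group of members led by TRIM31, whose mean went from 3.77 to 373 normalized counts. TRIM22, TRIM38, TRIM56 and TRIM29 rose by 1.09 to 2.77 on the log2 scale, and TRIM3 fell. Against DMSO, 6 members were called higher and 1 lower, next to 10.7% and 3.93% of all tested genes, and 14.6% of all tested genes were called. The median change was 0.24 over the tested members and -0.04 over all tested genes. In cells that also received lapatinib, 7 were called higher and 3 lower, next to 11.5% and 6.35% of all tested genes, with 17.9% called in all and medians of 0.05 and -0.03. Under spike-in scaling 3 and 1 of these calls were left, next to 567 and 401 of all tested genes. Those left were TRIM22, TRIM31 and TRIM38 against DMSO and TRIM31 alone beside lapatinib. The comparisons against DMSO and against lapatinib share no library. TRIM22, TRIM29, TRIM31, TRIM38 and TRIM56 were called higher and TRIM3 lower in both. That is 6 of the 7 called without lapatinib and 6 of the 10 called with it. The same overlap was not counted over all tested genes, so whether it is particular to the family is not known.

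**Figure D2:**
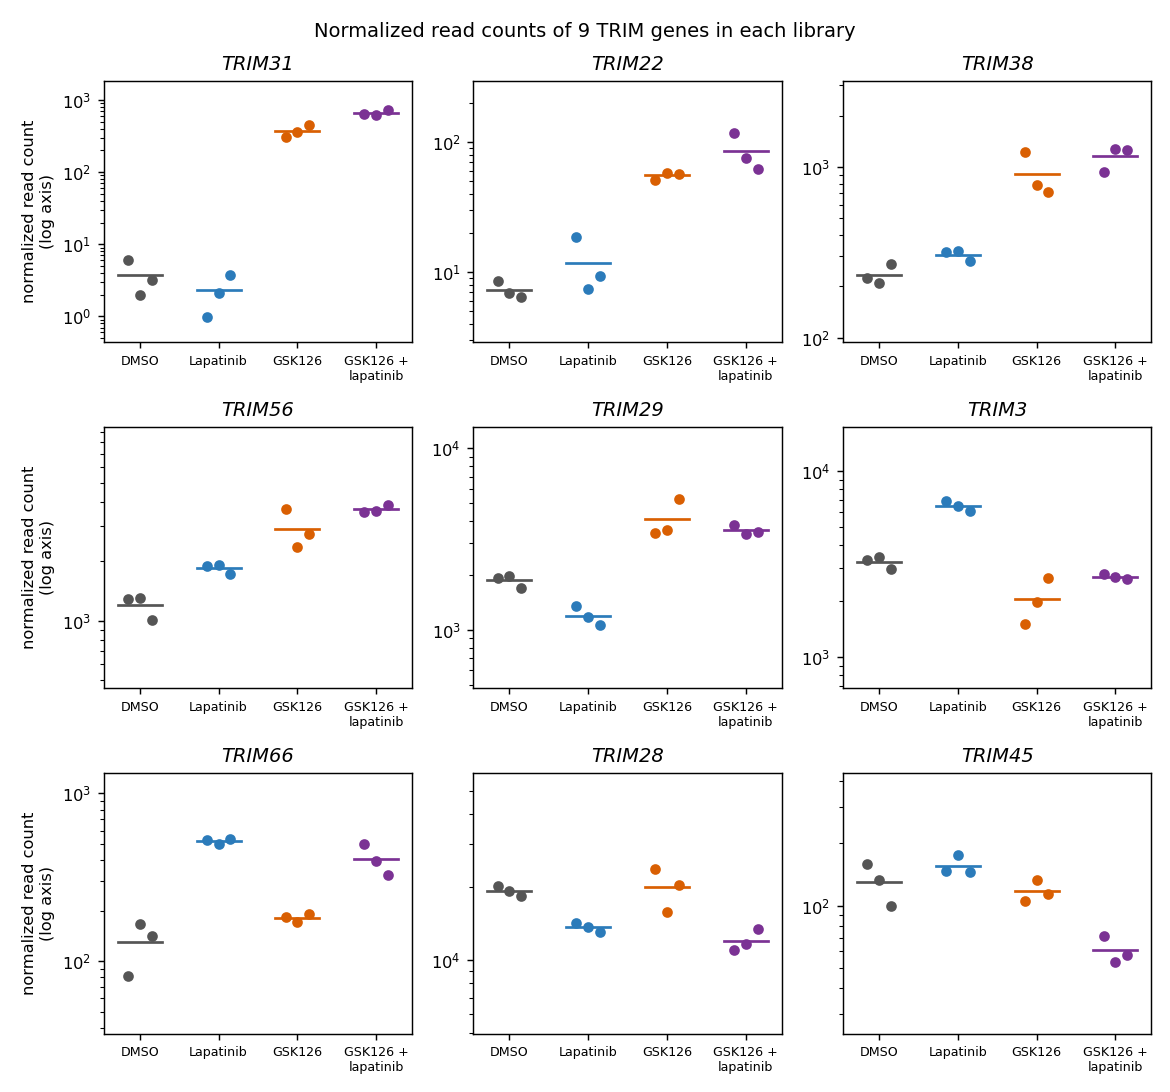
Normalized read counts (log axis) of 9 TRIM genes in the 4 groups. Each point is 1 of 3 libraries and each line is the group mean. TRIM31 goes from at most 6.13 without GSK126 to at least 309 with it, and TRIM66 is above 320 in every library that received lapatinib.

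TRIM31 is a ligase that ubiquitinates the antiviral adaptor MAVS and lies in the MHC class I region. Its levels were 6.13, 1.98 and 3.20 with DMSO, 0.979, 2.13 and 3.75 with lapatinib, 309, 360.5 and 451 with GSK126 and 637, 618 and 729 with both drugs. The libraries with GSK126 lay far above all without it. It rose by 6.37 ± 0.38 against DMSO (adjusted p = 5.23e-07) and by 7.74 ± 0.38 in the presence of lapatinib (adjusted p = 5.46e-08). The DMSO value rests on 10 reads over 3 libraries, so the size of the change is imprecise, and the change passed under all alternatives that were run in both comparisons. In libraries of like spike-in make-up alone, the change in the presence of lapatinib was 7.77. Its level per kb went from 1.84 to 183 and, with both drugs, to 324.

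TRIM22 is an interferon-induced PRY-SPRY protein that restricts several viruses. Its levels were 8.58, 6.92 and 6.40 with DMSO, 18.6, 7.45 and 9.38 with lapatinib, 51.5, 58.3 and 56.6 with GSK126 and 118, 75.2 and 62.6 with both drugs. The libraries with and without GSK126 did not overlap. It rose by 2.77 ± 0.38 against DMSO (adjusted p = 0.000247) and by 2.80 ± 0.38 against lapatinib (adjusted p = 0.000165). With the spike-in make-up as a term, the change against DMSO was 2.05 and no longer passed (adjusted p = 0.161). In such a fit GSK126 library 1, alone in its make-up, does not count. The make-up of GSK126 libraries 2 and 3 is set from combination library 1 against combination libraries 2 and 3. Here and below, the term therefore cannot separate make-up from what is particular to combination library 1 in comparisons with the GSK126 group. Under spike-in scaling the change against lapatinib did not pass (adjusted p = 0.0684).

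TRIM38, a neighbour of the extended MHC region that tempers signalling from Toll-like and cytokine receptors, was next. Its levels were 223, 209 and 271 with DMSO, 316, 322 and 282 with lapatinib, 1222, 781 and 714 with GSK126 and 931, 1274 and 1264 with both drugs. Every library with GSK126 lay above every library without it. The rise was 1.91 ± 0.21 against DMSO (adjusted p = 4.74e-05) and 1.90 ± 0.21 against lapatinib (adjusted p = 3.48e-05). The difference between these changes was -0.01 ± 0.30 (95% interval -0.66 to 0.63). Under spike-in scaling the rise against lapatinib did not pass (adjusted p = 0.149). The lapatinib libraries also lay above all DMSO libraries. That change of 0.39 was not called in the main fit but was with the spike-in make-up as a term (adjusted p = 0.0401).

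TRIM56, which promotes signalling from the DNA-sensing adaptor STING and from Toll-like receptors, was the member of this group that the main fit also called higher with lapatinib. Its levels were 1279.7, 1301 and 1012 with DMSO, 1899, 1918 and 1715 with lapatinib, 3665, 2373 and 2740.2 with GSK126 and 3547, 3595 and 3838 with both drugs. The order was DMSO, lapatinib and then both GSK126 groups, and the libraries of GSK126 and the combination overlap. GSK126 raised it by 1.27 ± 0.16 (adjusted p = 0.000165) and, beside lapatinib, by 0.99 ± 0.16 (adjusted p = 0.000874). Under spike-in scaling neither GSK126 change passed (adjusted p = 0.179 and 0.584). Lapatinib alone raised it by 0.63 ± 0.16 (adjusted p = 0.013), a call that was lost without DMSO library 3, lapatinib library 1 or lapatinib library 2.

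TRIM29 has no RING and is best known from basal epithelia and from the DNA damage response. Its levels were 1944, 1974 and 1709 with DMSO, 1347, 1173 and 1066 with lapatinib, 3408, 3559 and 5256 with GSK126 and 3801, 3369.9 and 3466 with both drugs. The lapatinib libraries are the lowest and the GSK126 and combination libraries the highest, with no overlap. It rose by 1.09 ± 0.17 with GSK126 (adjusted p = 0.000651) and by 1.57 ± 0.17 with GSK126 beside lapatinib (adjusted p = 2.56e-05). Lapatinib alone lowered it, by 0.65 ± 0.17 (adjusted p = 0.0121), a call that was lost without lapatinib library 3. With the spike-in make-up as a term, the GSK126 change was 1.05 with an adjusted p of 0.0713. Under spike-in scaling neither rise passed (adjusted p = 0.438 and, beside lapatinib, 0.359).

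TRIM3, an NHL-repeat ligase of neurons that is also studied as a growth suppressor, moved the other way. Its levels were 3323, 3439.6 and 2969 with DMSO, 6939, 6507 and 6089 with lapatinib, 1515, 1983 and 2663 with GSK126 and 2784, 2682 and 2642 with both drugs. Lapatinib libraries were the highest and the first 2 GSK126 libraries the lowest, while the combination libraries lay near the third GSK126 library and below all DMSO libraries. It fell by 0.69 ± 0.17 with GSK126 (adjusted p = 0.0166) and by 1.27 ± 0.17 with GSK126 beside lapatinib (adjusted p = 0.000199). The fall against DMSO was lost without DMSO library 1 or 2 and when only the groups compared were fitted, and with the spike-in make-up as a term it was -0.56 (adjusted p = 0.334).

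**Figure D3:**
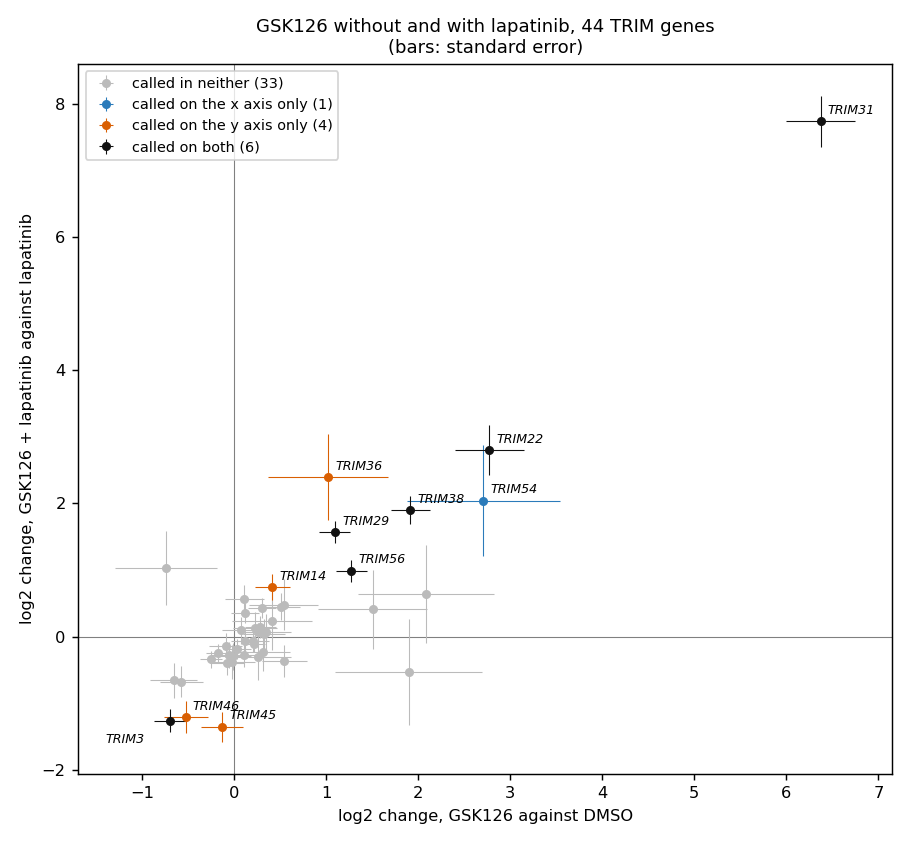
Log2 change of the 44 tested TRIM genes with GSK126 against DMSO (x axis) and with both drugs against lapatinib (y axis), with standard errors, in libraries that are not shared between the axes. Black points, called on both axes, are TRIM31, TRIM22, TRIM38, TRIM56 and TRIM29 at upper right and TRIM3 at lower left.

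The remaining calls with GSK126 came at low counts or in 1 of the 2 comparisons. TRIM54, a muscle RING-finger protein, was at 0, 1.98 and 0 with DMSO and 15.3, 3.07 and 11.5 with GSK126, from 2 DMSO reads in all. Its call (adjusted p = 0.0454) was lost under 10 of 18 alternatives. Beside lapatinib, TRIM14, a RING-less cofactor of MAVS, rose by 0.74 ± 0.19 (adjusted p = 0.0163). Its levels were 636, 792 and 687 with DMSO, 559, 515 and 624 with lapatinib, 683, 1161 and 1028 with GSK126 and 1053, 949 and 841 with both drugs. The lapatinib and combination libraries did not overlap, yet the call was lost without lapatinib library 1 or 2 or combination library 1 or 2. TRIM36, a COS-box protein of the cytoskeleton, went from 0.979, 1.06 and 4.69 with lapatinib to 31.1, 8.90 and 9.64 with both drugs, where its first library is the high one. Its change of 2.39 ± 0.65 (adjusted p = 0.0211) was lost without combination library 1, lapatinib library 1 or lapatinib library 2, and within the first spike-in make-up.

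TRIM46, an organizer of axonal microtubules, was lowered by GSK126 beside lapatinib. Its levels were 206, 185 and 177 with DMSO, 385, 365 and 346 with lapatinib, 163, 84.4 and 162 with GSK126 and 163, 139 and 173 with both drugs. Lapatinib libraries stand above all others. The fall beside lapatinib was 1.21 ± 0.24 (adjusted p = 0.00293), and against DMSO the change with GSK126 was -0.53 ± 0.24 (adjusted p = 0.176).

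TRIM45, a filamin-repeat protein known to restrain MAPK signalling, was lowest with both drugs. Its levels were 159, 133 and 99.3 with DMSO, 147, 176 and 145 with lapatinib, 105, 133 and 113 with GSK126 and 70.9, 53.4 and 57.8 with both drugs. The combination libraries lie below every library of the other groups. It fell by 1.35 ± 0.23 against lapatinib (adjusted p = 0.000903), by 0.94 ± 0.23 against GSK126 (adjusted p = 0.0125) and by 1.08 ± 0.23 against DMSO (adjusted p = 0.00208). Against GSK126 the call was lost under total count scaling, with the spike-in make-up as a term (-0.78, adjusted p = 0.174), when only the groups compared were fitted and without combination library 2.

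Of 11 tested members listed as antiviral or interferon-linked, 3 were called higher with GSK126, next to 10.7% of all tested genes, and 4 beside lapatinib, next to 11.5%, and none was called lower. Under spike-in scaling these counts were 2 and 0, next to 567 and 401 of all tested genes called. TRIM25, which ubiquitinates the RNA sensor RIG-I, was at 2135, 2222 and 1865 with DMSO, 2516, 2364 and 2481 with lapatinib, 2389, 2303 and 2517 with GSK126 and 2439, 2205 and 2187 with both drugs. Its change with GSK126 was 0.22 ± 0.12 (95% interval -0.04 to 0.47) and beside lapatinib -0.11 ± 0.12 (95% interval -0.37 to 0.15). TRIM21, the cytosolic antibody receptor, was at 157, 208 and 195 with DMSO, 288, 270.3 and 245 with lapatinib, 116, 364 and 461 with GSK126 and 397, 394 and 333 with both drugs. Its first GSK126 library lay below all DMSO libraries and its others above them. TRIM5, which binds retroviral capsids, was at 202, 220.3 and 204 with DMSO, 207, 186 and 208 with lapatinib, 176, 275 and 236 with GSK126 and 359.7, 312 and 230.3 with both drugs. Its change beside lapatinib was 0.56 ± 0.21 (adjusted p = 0.0843).

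Of the 8 members from the MHC region, 5 were tested, and TRIM31 and TRIM38 were called higher with GSK126, next to 10.7% of all tested genes. TRIM26, which negatively regulates the interferon factor IRF3, was at 1873, 1942 and 1621 with DMSO, 1986, 1753 and 1764 with lapatinib, 1285, 1791 and 2461 with GSK126 and 1659, 1493 and 1338 with both drugs. Its GSK126 libraries enclose the range of DMSO, and the change was -0.02 ± 0.20 (95% interval -0.45 to 0.41). TRIM39 changed by 0.10 ± 0.18 and TRIM27 by -0.25 ± 0.12, and neither was called. TRIM10, TRIM15 and TRIM40 of the same region were too low to test. TRIM16, a member without a RING that is known from autophagy, was at 1375, 1465 and 1344 with DMSO, 1360.2, 1151 and 1103 with lapatinib, 1315, 1389 and 1889 with GSK126 and 1507, 1563 and 1541 with both drugs. It was called in no comparison, and its change with GSK126 was 0.12 ± 0.15 (95% interval -0.21 to 0.44).

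Among members whose higher group averaged 50 or more, lapatinib raised TRIM66, TRIM68, TRIM3 and TRIM4 most, by 0.98 to 2.05 on the log2 scale, and lowered TRIM29 and the corepressor TRIM28. The largest fitted changes were at low counts, in TRIM69 (2.61 ± 0.80) and TRIM36 (-2.14 ± 0.65). TRIM3, TRIM29 and TRIM56 were called with each drug against DMSO, in comparisons that share the DMSO libraries. Against DMSO, 10 members were called higher and 3 lower, next to 13.7% and 14.3% of all tested genes, and 28% of all tested genes were called. The median change was 0.35 over the tested members and 0.04 over all tested genes, and under spike-in scaling, which ended all 13 calls, these medians were -0.23 and -0.49. Of all tested genes 783 were called under that scaling, against 3973 in the main fit. With GSK126 present in both groups, 4 were called higher and 3 lower, next to 8.48% and 9.71%, with 18.2% called in all and medians of 0.06 and 0.04. TRIM2, TRIM4, TRIM66 and TRIM68 rose and TRIM28 fell in both, though TRIM2, TRIM4 and TRIM68 changed sign beside GSK126 under spike-in scaling. These genes are 5 of the 13 called without GSK126 and 5 of the 7 called with it. This overlap, too, was not counted over all tested genes. When only the groups compared were fitted, 1 call was left with GSK126 present, and 4 and 2 were left without combination library 1 and without combination library 2. Of all tested genes 948, 1494 and 1361 were called in these fits, against 2579 in the main fit.

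**Figure D4:**
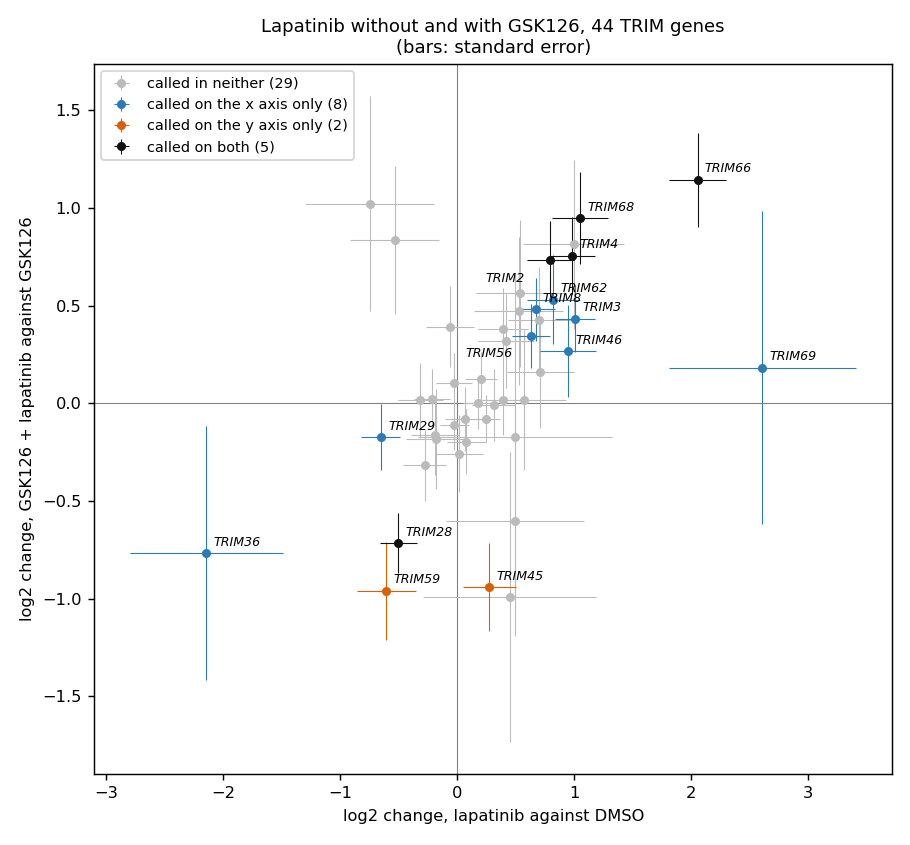
Log2 change of the 44 tested TRIM genes with lapatinib against DMSO (x axis) and with both drugs against GSK126 (y axis), with standard errors, in libraries that are not shared between the axes. TRIM66, TRIM68, TRIM4 and TRIM2 are called higher and TRIM28 lower on both axes. Under spike-in scaling TRIM2, TRIM4 and TRIM68 change sign on the y axis.

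TRIM66, a relative of the chromatin class that is best known from testis, showed the largest lapatinib rise among called members whose higher group averaged 50 or more. Its levels were 82.1, 166 and 141 with DMSO, 526, 501 and 532 with lapatinib, 183, 172 and 191 with GSK126 and 503, 396 and 329 with both drugs. Every library with lapatinib lay above every library without it. The rise was 2.05 ± 0.24 against DMSO (adjusted p = 5.64e-05) and 1.15 ± 0.24 against GSK126 (adjusted p = 0.0059). The difference between these changes was -0.91 ± 0.34, which did not pass (adjusted p = 0.693).

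TRIM68, a ligase for the androgen receptor, was at 278, 415 and 351 with DMSO, 716, 689 and 732 with lapatinib, 150.1, 288 and 282 with GSK126 and 489, 448 and 403 with both drugs. Lapatinib libraries are the highest, and within both backgrounds the groups with and without lapatinib do not overlap. It rose by 1.05 ± 0.24 against DMSO (adjusted p = 0.00587) and by 0.95 ± 0.24 against GSK126 (adjusted p = 0.0153). TRIM4, another PRY-SPRY ligase with a role at RIG-I, was at 435, 595 and 566 with DMSO, 1031, 1011 and 1081 with lapatinib, 368, 658 and 536 with GSK126 and 882, 856 and 829.8 with both drugs. It rose by 0.98 ± 0.20 (adjusted p = 0.00281) and by 0.76 ± 0.20 (adjusted p = 0.0187). The calls of both genes against GSK126 were lost without combination library 1 or 2, and with the spike-in make-up as a term.

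Of the 3 tested NHL-repeat members, 2 were called higher with lapatinib, next to 13.7% of all tested genes, and as above neither call held under spike-in scaling. TRIM3 rose by 1.01 ± 0.17 (adjusted p = 0.00104). TRIM2, which ubiquitinates neurofilament light chain, was at 848, 682 and 818 with DMSO, 1250.5, 1356 and 1458 with lapatinib, 1219, 1384 and 809 with GSK126 and 1533, 2242 and 1823 with both drugs. It rose by 0.79 ± 0.20 (adjusted p = 0.0113) and, beside GSK126, by 0.73 ± 0.20 (adjusted p = 0.0252), with the second call lost without GSK126 library 3, combination library 2 or combination library 3. TRIM32, a muscle ligase of the same class, was at 224, 322 and 271 with DMSO, 487, 375 and 473 with lapatinib, 198, 469 and 407 with GSK126 and 452, 386 and 303 with both drugs. The DMSO and lapatinib libraries did not overlap, but the change of 0.71 ± 0.29 did not pass (adjusted p = 0.0836).

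Other members that rose with lapatinib were TRIM46 (by 0.95 ± 0.24, adjusted p = 0.0104), TRIM62 and TRIM8. TRIM62, a PRY-SPRY ligase tied to epithelial polarity, was at 480.5, 633 and 535 with DMSO, 1036, 919.6 and 942 with lapatinib, 445, 817 and 879.5 with GSK126 and 1084, 1027 and 867 with both drugs. It rose by 0.82 ± 0.23 (adjusted p = 0.0171). Its call was lost without DMSO library 1, DMSO library 3 or lapatinib library 1. TRIM8, a regulator of cytokine and NF-κB signalling, was at 761, 995 and 807 with DMSO, 1487, 1229 and 1349 with lapatinib, 807, 848 and 1145 with GSK126 and 1263, 1317 and 1282 with both drugs. All lapatinib libraries exceeded all DMSO libraries. It rose by 0.67 ± 0.16 (adjusted p = 0.00833). TRIM69 passed at very low counts, with 0, 6.92 and 1.07 in DMSO and 11.8, 29.8 and 8.45 with lapatinib (adjusted p = 0.0285), and it did not pass with edgeR. TRIM36 fell from 4.90, 17.8 and 17.1 to 0.979, 1.06 and 4.69 (adjusted p = 0.0272). The calls of both low genes were lost in 4 of 6 fits that left out 1 library.

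Of the 3 tested members counted in the chromatin class (TRIM24, TRIM28 and TRIM33), TRIM28 fell with lapatinib, next to 14.3% of all tested genes called lower. None of these 3 was called higher. Their relative TRIM66, which was not counted in the class here, rose by 2.05, as given above. TRIM28, also called KAP1, recruits histone methyltransferase and deacetylase complexes to KRAB zinc finger proteins. Its levels were 20225, 19334 and 18434 with DMSO, 14153, 13706 and 13064 with lapatinib, 23746, 15736 and 20379 with GSK126 and 11028, 11679.9 and 13373 with both drugs. The libraries with lapatinib lay below all libraries without it. It fell by 0.50 ± 0.15 against DMSO (adjusted p = 0.0288), a call lost in each of the 6 fits that left out 1 library, and by 0.71 ± 0.15 against GSK126 (adjusted p = 0.00715), which kept its call in all 6. The call against GSK126 was lost when only the groups compared were fitted (adjusted p = 0.0866).

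TRIM24, a nuclear receptor cofactor, was at 708, 596 and 663 with DMSO, 520.0, 516 and 584 with lapatinib, 784, 633 and 462 with GSK126 and 508, 519 and 449 with both drugs. With lapatinib its change of -0.28 ± 0.18 (95% interval -0.67 to 0.12) was not called although those groups did not overlap. TRIM33, a regulator of SMAD signalling, was at 3259, 2386 and 3365 with DMSO, 2479, 2737 and 2600.4 with lapatinib, 4387, 2657 and 2585 with GSK126 and 2513, 2682 and 3172 with both drugs. The groups overlap. With lapatinib it changed by -0.19 ± 0.20 (95% interval -0.63 to 0.25). With GSK126 alone TRIM28 changed by 0.03 ± 0.15 (95% interval -0.31 to 0.36).

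TRIM59, a membrane-anchored member tied to proliferation, fell by 0.96 ± 0.25 when lapatinib was added to GSK126 (adjusted p = 0.0191). Its levels were 477, 617 and 692 with DMSO, 387, 333 and 448 with lapatinib, 380.1, 831 and 609.9 with GSK126 and 309, 311 and 271 with both drugs. The combination libraries are the lowest, and the GSK126 libraries are widely spread. This call was lost without GSK126 library 3 or any 1 of the combination libraries.

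With both drugs against DMSO, 14 members were called higher and 5 lower, next to 22% and 20.1% of all tested genes, with 42.1% called in all. The median change was 0.39 over the tested members and 0.06 over all tested genes, and -0.63 and -0.94 under spike-in scaling, where TRIM4, TRIM6, TRIM8, TRIM29 and TRIM62 changed sign. Under that scaling 2 members were called higher and 6 lower. Of the 4672 genes called under it 12.4% were higher, against 52.2% in the main fit. The balance of directions thus turned over for the members and for all genes alike. TRIM31 rose by 7.21 ± 0.38, TRIM22 by 3.34 ± 0.38, TRIM38 by 2.29 ± 0.21, TRIM66 by 1.69 ± 0.24 and TRIM56 by 1.62 ± 0.16. TRIM28 fell by 0.69 ± 0.15 (adjusted p = 0.00335) and TRIM59 by 0.99 ± 0.25 (adjusted p = 0.00688). TRIM3, which lapatinib raised and GSK126 lowered, was not called (-0.26 ± 0.17, adjusted p = 0.248).

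TRIM6, TRIM21, TRIM27, TRIM37 and TRIM52 were called in this comparison and in none of the other 4, and whether their changes differ between comparisons was not tested. TRIM37, a MATH-domain ligase of centrosome control, was at 519.7, 551 and 576 with DMSO, 465, 467 and 523 with lapatinib, 237, 547 and 324 with GSK126 and 314, 375 and 244 with both drugs. It fell by 0.84 ± 0.26 (adjusted p = 0.0191). TRIM21 rose by 1.01 ± 0.38 (adjusted p = 0.0479), a call lost in each of the 6 fits that left out 1 library. TRIM52, a low member with a truncated domain set, was at 41.7, 44.5 and 28.8 with DMSO, 78.3, 76.6 and 73.2 with lapatinib, 50.4, 102 and 24.7 with GSK126 and 117, 106 and 57.8 with both drugs. It rose by 1.23 ± 0.43 (adjusted p = 0.0366). TRIM27, a ligase of endosomal sorting, was at 2699, 2389 and 2375 with DMSO, 2516, 2492 and 2327 with lapatinib, 1974, 1931 and 2369.8 with GSK126 and 1823, 1954 and 2001 with both drugs. It fell by 0.37 ± 0.12 (adjusted p = 0.0309). TRIM6 rose by 0.77 ± 0.27 (adjusted p = 0.0376). The calls of TRIM52 and TRIM27 were lost in 5 of those 6 fits and that of TRIM6 in 3. TRIM6 and TRIM34 overlap in the genome and TRIM16 has a close paralogue, so their reads may be shared.

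No member passed the test of the interaction, which asks whether the lapatinib change differed with GSK126 present. With limma and with edgeR 0 members were called, next to 0.0212% of all tested genes with limma. At an unadjusted p under 0.05 there were 5 of 44 members with limma (TRIM3, TRIM31, TRIM34, TRIM45 and TRIM66), next to 5.9% of all tested genes, and 5 with edgeR. TRIM45 had the smallest p, with a difference of -1.22 ± 0.32 (95% interval -1.90 to -0.53, adjusted p = 0.321), and DESeq2 called it (adjusted p = 0.0403). DESeq2 called 115 of all tested genes in the interaction, against 3 with limma. The difference for TRIM31 was 1.37 ± 0.54 (95% interval 0.21 to 2.53), which did not pass after adjustment. It rests on 10 reads with DMSO and 7 with lapatinib. With DESeq2 TRIM31 was not among the members at an unadjusted p under 0.05.

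The 19 members called in none of the comparisons of 2 groups still had a range of fitted changes. With lapatinib against DMSO it ran from -0.75 (TRIM34) to 0.71 (TRIM32), and with GSK126 against DMSO from -0.74 (TRIM34) to 2.08 (TRIM9). Both ends with GSK126 are members at low counts, with TRIM9 at 2.45, 7.90 and 1.07 with DMSO and 23.0, 12.3 and 14.1 with GSK126 (adjusted p = 0.0848). With both drugs the abundant TRIM44 had the smallest adjusted p of the 19, at 0.0517 against DMSO and 0.0750 against lapatinib. TRIM41, also abundant, had the lowest change of the 19 against lapatinib, at -0.40. The abundant members TRIM47 and TRIM11 changed little with lapatinib. TRIM47 was at 5588, 5596 and 4506 with DMSO, 5763, 5568 and 5000.0 with lapatinib, 5952, 5246 and 8134 with GSK126 and 5695, 5865 and 6402 with both drugs, and its change with lapatinib was 0.06 ± 0.16 (95% interval -0.29 to 0.42). TRIM11 changed by 0.08 ± 0.17 with lapatinib (95% interval -0.29 to 0.44).

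The neighbouring pathway was described with lists drawn up with earlier results known. Of 40 tested interferon response genes, 29 rose and none fell with GSK126, and 34 rose and none fell with GSK126 beside lapatinib. Next to these stand 14.6% and 17.9% of all tested genes called. The median change of the list was 2.20 with GSK126 and 3.01 with GSK126 beside lapatinib. PARP14 went from 1.67 to 159 and DTX3L from 12.7 to 293, on the scale of normalized counts. With lapatinib alone 6 of the 40 rose and 2 fell, next to 28% of all tested genes called. The GSK126 count was 11 with the spike-in make-up as a term and 17 under spike-in scaling, and the count beside lapatinib was 16 under spike-in scaling.

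Of 17 tested sensors and adaptors of viral RNA and DNA, 6 rose and none fell with GSK126, both without and with lapatinib, next to 14.6% and 17.9% of all tested genes called. TMEM173, which encodes STING, rose by 1.42 ± 0.20 (adjusted p = 0.000339), DDX58, which encodes RIG-I, by 0.97 ± 0.21 (adjusted p = 0.00838), and DHX58, which encodes LGP2, by 2.23 ± 0.25 (adjusted p = 5.36e-05). The GSK126 count was 2 when only the groups compared were fitted, 2 with the spike-in make-up as a term and 1 under spike-in scaling, and beside lapatinib it was 0 under spike-in scaling. With lapatinib 4 rose and 3 fell, next to 28% of all tested genes called and 0 of the list under spike-in scaling, with MAVS higher (0.77 ± 0.17) and IRF3 lower (-0.96 ± 0.26). Of 17 tested interferon receptor and JAK-STAT genes, 4 rose and 1 fell with GSK126, and the transcription factor IRF1 led, rising by 2.95 ± 0.16 (adjusted p = 2.89e-07). The count of 5 in this list, next to 14.6% of all tested genes, was 1 with the spike-in make-up as a term, 1 under spike-in scaling and 2 when only the groups compared were fitted. With lapatinib 3 of them rose and 2 fell, a share near the 28% of all tested genes.

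Of 17 tested E2 enzymes that serve TRIM ligases, GSK126 raised UBE2L6, which is the E2 for ISG15, by 2.78 ± 0.38 (adjusted p = 0.00027) and UBE2E2 by 1.12 ± 0.16 (adjusted p = 0.00033), and lowered none. This count is below the 14.6% of all tested genes, and 0 were called with the spike-in make-up as a term. Lapatinib raised none and lowered 4, among them UBE2E3, which fell by 0.70 ± 0.14 (adjusted p = 0.00316). That share is also below the 28% of all tested genes, and 0 were called under spike-in scaling. Of 20 tested partners of the chromatin members, lapatinib lowered 3, the heterochromatin proteins CBX3 (-0.98 ± 0.23) and CBX1 (-0.78 ± 0.24) and the deacetylase HDAC2 (-0.64 ± 0.18), and raised CHD3. This is below the 28% of all tested genes, and 1 was called under spike-in scaling. GSK126 raised 3, near the 14.6% of all tested genes, and SMAD3, a partner of TRIM33 signalling, had the smallest p with a rise of 1.81 ± 0.20 (adjusted p = 5.48e-05). That count was 1 with the spike-in make-up as a term and 0 under spike-in scaling.

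Of 6 tested genes of the TRIM fold that carry other symbols, GSK126 raised PML by 0.77 ± 0.19 (adjusted p = 0.0142) and MID2, a low gene with 0 reads in 2 DMSO libraries, by 3.75 ± 0.83 (adjusted p = 0.00808), next to 14.6% of all tested genes called. Both calls were lost with the spike-in make-up as a term and when only the groups compared were fitted. Lapatinib raised RNF135, a ligase of RIG-I, by 1.21 ± 0.21 (adjusted p = 0.000996), the 1 call of this list next to 28% of all tested genes. MID1, a microtubule-bound ligase, fell by 0.58 ± 0.12 with GSK126 beside lapatinib. In that comparison 2 of the list were called, both lower, next to 17.9% of all tested genes. Under spike-in scaling 0 of the list were called in either of these comparisons. Of 8 tested muscle-type ligases and FOXO factors, 3 were called with lapatinib and 4 with GSK126, next to 28% and 14.6% of all tested genes, and 0 and 1 under spike-in scaling. The atrophy ligase FBXO32 rose with each drug, by 2.13 ± 0.11 with lapatinib and 2.18 ± 0.11 with GSK126, while its classical partner TRIM63 was too low to test. Of 11 tested PRC2 subunit genes, lapatinib lowered 4 and raised 1, next to 28% of all tested genes called, and EZH2 itself fell by 1.74 ± 0.13. Under spike-in scaling 1 was called with lapatinib. GSK126 raised 1 of the 11, PHF19, below the 14.6% of all tested genes.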

How the data were processed

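Messenger RNA was measured in 12 SKBR3 libraries, in 4 groups of 3 by the labels. Per the labels' protocols, RNA was taken with RNeasy Plus Mini kits, libraries were made with Kapa mRNA HyperPrep kits, and 75 bp single-end reads were sequenced. The submitters' processing notes name the aligner STAR, DESeq2 and the genome build hg19. Versions, counter, annotation and strand are not given in the sources used here. The deposited values are a signal, namely read counts that the authors scaled with 1 DESeq2 size factor per library. All values of the 12 columns came out as whole reads within 0.01 (100%), so that reads could be recovered. Spike-in rows (86) stayed out of the tests.

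The main test was limma 3.58.1 (R 4.3.3, moderated with a trend), run on log2(value + 1) over all 12 libraries with 4 group means and 8 residual degrees of freedom, so the spread is pooled over groups. Genes entered if 3 or more libraries reached 10, and p-values were Benjamini-Hochberg adjusted across all of these. The fit was tested on simulated data. Alternatives were edgeR 4.0.16 and DESeq2 1.42.0 on recovered reads, other scalings, filters and pseudocounts, fits of only the groups compared, a term for spike-in make-up (3 sets of libraries formed from 32 spike-in transcripts), and leaving out each library. List counts under these alternatives were added after seeing the data. Members given in full were those called whose higher group averaged 50 or more and whose libraries did not overlap, up to 8 per direction, plus named antiviral, chromatin, NHL and MHC-region members. Other genes were the leading ones of each list. The members and lists were chosen with earlier results of these data known. Transcript lengths came from GENCODE 29 and were matched by symbol for all 62 members.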

Additional observations from a re-analysis of the deposited data

How the results depend on the processing

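Of the single-gene results, 2821 of 3031 values under an alternative kept their direction and their side of the threshold, 149 lost the threshold, 53 passed it and 8 reversed. All 8 reversals came with spike-in scaling: TRIM2 at -0.31, TRIM4 at -0.29 and TRIM68 at -0.094 for both drugs against GSK126, and TRIM29 at -0.086, TRIM4 at -0.31, TRIM6 at -0.23, TRIM62 at -0.15 and TRIM8 at -0.40 for both drugs against DMSO. Under that scaling the numbers of members called were 0 for lapatinib against DMSO (otherwise 13), 3 for GSK126 against DMSO (7), and with both drugs 1 against lapatinib (10), 3 against GSK126 (7) and 8 against DMSO (19), and the cause was not tested. Of all tested genes 783, 567, 401, 3061 and 4672 were called in that order, against 3973, 2069, 2537, 2579 and 5970 in the main fit. With the spike-in make-up as a term, the comparisons of GSK126 with DMSO and of both drugs with GSK126 had 3 calls each. Of all tested genes 446 and 1147 were called there. In these comparisons the term leaves GSK126 library 1 without weight and rests on combination library 1. It therefore cannot separate make-up from what is particular to that library. Within the first make-up alone, lapatinib against DMSO had 20 calls, and both drugs against lapatinib had 16. Calls over all tested genes rose there too, to 6248 and 3447. No GSK126 library has that make-up, so the comparisons with GSK126 alone and the interaction could not be run within it. Fitting only the groups compared gave 21 for both drugs against lapatinib and 1 for both drugs against GSK126, next to 5094 and 948 of all tested genes. DESeq2 called 1 member in the interaction, next to 115 of all tested genes, against 3 with limma. Leaving out 1 library gave 8 to 11 calls for lapatinib against DMSO, 5 to 10 for GSK126 against DMSO, 8 to 11 when both drugs were compared with lapatinib, 2 to 10 when compared with GSK126 and 13 to 18 when compared with DMSO. The lowest values came without DMSO library 3 or lapatinib library 1 (8 each), and without combination library 1 (4) or combination library 2 (2). Of all tested genes 2545 to 3480, 1458 to 3252, 1739 to 2037, 1361 to 4411 and 4577 to 5479 were called in these fits, in the same order. The share of higher calls among all called genes was 49.1% for lapatinib against DMSO and 61.1% by total count scaling. For GSK126 against DMSO it was 73.1% and 85.5%. With both drugs it was 64.5% and 75.0% against lapatinib, 46.6% and 57.3% against GSK126, and 52.2% and 68.5% against DMSO. Under spike-in scaling these shares were 5.36%, 97.9%, 80.3%, 0.359% and 12.4%. No pairing by replicate number was evident: 4 of 18 same-numbered pairs correlated above 0.1, with a range of -0.33 to 0.35. Such correlations cannot show whether same-numbered libraries shared a culture or day, which the labels do not state. With the replicate block, 14, 6, 10, 7, 18 and 0 members were called in the order of the comparisons above with the interaction last. Of all tested genes 3731, 1809, 2295, 2299, 5781 and 1 were called with it. At 17.7 to 30.3 M reads, members such as TRIM54, TRIM69 and TRIM36 rest on few reads, and the 18 untested members cannot be compared.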
